A study of Mus musculus with 4 samples.

Results

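Macrophages that carry the programme of serous-cavity macrophages were described in a single-cell RNA-seq study of visceral fat in mice. The members were chosen by their own measured UMIs. A cell was taken when it held at least 1 unique molecular identifier (UMI, 1 counted RNA molecule) of at least 2 of the genes Gata6, Prg4, Alox15 and Saa3, at least 1 UMI of Csf1r or Adgre1, which mark macrophages, and no UMI of Col1a1 or Dcn, which mark fibroblasts. Of 21388 cells with at least 500 UMIs, at least 300 detected genes and at most 10% mitochondrial UMIs, 84 met this gate, or 0.393%. They are called the gated cells here. The remaining 18258 cells with Csf1r or Adgre1 and without Col1a1 and Dcn are called the other macrophages.

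GATA6 is a zinc-finger transcription factor that, in mice, specifies the resident macrophages of the peritoneal and other serous cavities. Retinoic acid from the lining and the fat of the cavity is known to maintain it. These large cavity macrophages are known for phagocytosis, for factors of coagulation and for adhesion to injured tissue, and perigonadal fat lies inside the peritoneal cavity.

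The study set wild-type (WT) mice against mice with a conditional knockout (CKO) of BLIMP1, the transcriptional repressor encoded by Prdm1, each on a high-fat or a normal diet. From each of the 4 combinations 1 library was made with the 10x Genomics 3′ method from live perigonadal white fat cells sorted as CD45+, Lin-, CD11b+ and CD64+. Age, sex, number of animals per library, time on the diet, and the Cre driver of the knockout are not stated by the labels. With 1 library per group there are no replicates and no test, and each 95% interval below covers counting error only.

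The libraries held 3737 to 8749 deposited cells and 21829741 to 74879066 UMIs. The WT high-fat library was the deepest, at a median of 14493 UMIs per kept cell against 3923 to 4092 in the other 3. For Prdm1, the targeted gene, the intervals of the detection shares of the WT and CKO libraries overlapped on each diet. After each cell was thinned to 2000 UMIs, Prdm1 was detected in 4.54% of the other macrophages of the WT and 4.11% of those of the CKO high-fat library, and in 4.29% and 5.15% of those on the normal diet. Without thinning, the pooled Prdm1 level in the other macrophages on the normal diet was higher in the CKO library. The CKO to WT ratio there was 1.22 (1.08 to 1.39). Which exons were deleted is not given, and a 3′ count outside them does not check the knockout, so WT and CKO are used here as the labels of the libraries. Between pairs of libraries, 2 to 12 cell barcodes were shared, and 1 of these belonged to a gated cell.

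GATA factors bind the core sequence GATA. Slpi and Cd5l, which are among the genes that stood highest in the gated cells, are shown by their proximal promoters because they hold a GATA motif before the start of their first listed promoter. In each line below, the 250 bases before the transcription start are given from RefSeq on build GRCm38.p6, 5′ to 3′ on the gene's strand, and the capitals mark TGATAA, 1 of the 2 motifs searched. Slpi, the secretory leukocyte protease inhibitor, is read from the minus strand at chr2:164356508-164356757. Cd5l, a secreted macrophage protein, is read from the plus strand at chr3:87357631-87357880.
Slpi: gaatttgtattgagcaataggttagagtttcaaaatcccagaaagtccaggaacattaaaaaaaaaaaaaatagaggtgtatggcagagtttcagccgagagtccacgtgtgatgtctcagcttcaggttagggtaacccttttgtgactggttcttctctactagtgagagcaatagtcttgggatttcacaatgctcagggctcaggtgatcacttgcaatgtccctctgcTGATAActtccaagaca
Cd5l: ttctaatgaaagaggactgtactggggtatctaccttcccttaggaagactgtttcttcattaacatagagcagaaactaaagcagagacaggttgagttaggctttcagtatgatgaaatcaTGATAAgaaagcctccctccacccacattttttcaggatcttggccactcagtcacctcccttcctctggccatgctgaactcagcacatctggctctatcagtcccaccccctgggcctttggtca
The motifs AGATAA and TGATAA, which can share 1 base, were searched on both strands from 250 bases before to 50 bases after the start. Of the 15 genes that stood highest in the gated cells, 10 had a promoter in the table, and 3 of these held a match in the first listed promoter, Slpi, Cd5l and Tgfb2. That is 30% of the 10, beside 5122 of 27025 genes with a promoter, or 19.0%, counted the same way. A second listed promoter of Serpinb2 also held a match, and neither listed promoter of Ltbp1 did. A match is a string of letters and not a bound site.

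Gated cells were found almost entirely in the normal-diet libraries, which held 79 of the 84. On the normal diet they made up 38 of 3705 cells in the WT library, or 1.03% (exact binomial interval 0.727 to 1.41), and 41 of 4302 in the CKO library, or 0.953% (0.685 to 1.29). On the high-fat diet there were 0 of 4650 WT cells, which allows a share of up to 0.0645% by the limit of 3 counts and 0.0793% by the exact interval, and 5 of 8731 CKO cells, or 0.0573% (0.0186 to 0.134). The 2 normal-diet shares overlapped, with a CKO to WT ratio of 0.929 (0.583 to 1.48). The normal-diet share was 16.6 times the high-fat share in the CKO libraries (6.58 to 54.0), and at least 15.9-fold higher in the WT libraries when the high-fat library is set at 3 counts. The exact interval of the WT ratio starts lower, at 12.3. Animals, diet and library preparation cannot be told apart in these shares.

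**Figure D1:**
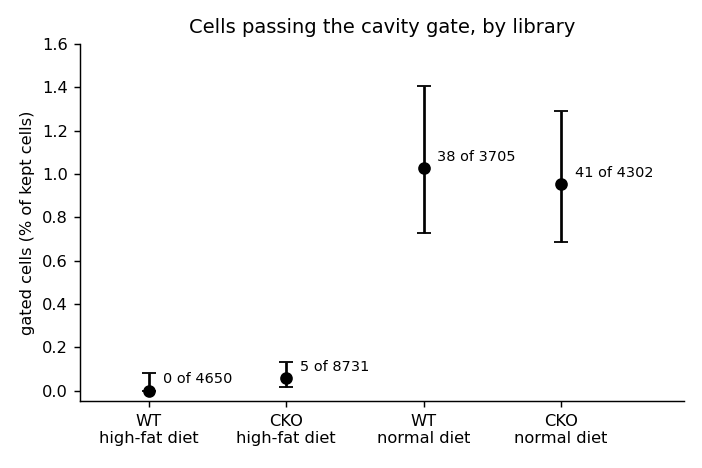
The plot gives the gated cells as a percentage of the kept cells in each of the 4 libraries, with exact 95% binomial intervals and the counts beside the points. Both normal-diet libraries sit near 1% and both high-fat libraries lie under 0.2%.

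Before Csf1r, Adgre1, Col1a1 and Dcn were applied, 99 cells held 2 or more of the 4 cavity genes. The 15 cells lost were 7 of the WT high-fat, 5 of the WT normal-diet and 3 of the CKO normal-diet library. In the 7 WT high-fat cells the 10 fibroblast genes summed to 38322 counts per 1000000 (CPM), and 1 of these 7 cells held the mesothelial gene Msln or Upk3b. No gated cell was among the cells that failed the depth or mitochondrial filters. The gate asks for detected molecules, so deep cells pass it more easily. Gated cells had a median of 8957 UMIs in the WT and 12738 in the CKO normal-diet library, against 4445 and 4315 in the other macrophages, and their mitochondrial shares were 2.02% and 2.02% against 1.63% and 1.78%. When every cell was thinned to 2000 UMIs before gating, the shares were 0.792% and 0.747% on the normal diet and 0 and 0.0392% on the high-fat diet.

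The genes of the gate are described with no test, since they chose the cells. On build GRCm38, Prg4 lies on chromosome 1 at 150449412 to 150466165 on the minus strand, Alox15 on chromosome 11 at 70344152 to 70352031 and Saa3 on chromosome 7 at 46711998 to 46715700, both also on the minus strand. Prg4, which encodes the lubricating protein lubricin, was found in 37 of the 38 WT and 40 of the 41 CKO gated cells, at a median of 14.5 and 18 UMIs per cell. Alox15, a lipoxygenase that makes 12- and 15-hydroxy fatty acids, was found in 32 and 35 cells, and Saa3, an acute-phase apolipoprotein, in 34 and 33. Gata6 itself was found in 13 and 16 cells, with at most 2 UMIs in a WT cell and 8 in a CKO cell. Its level was 36.1 CPM in the WT and 57.4 in the CKO gated cells, so the label rests mainly on Prg4, Alox15 and Saa3. All 4 genes were found together in 11 WT and 13 CKO cells, while 9 and 12 cells passed with exactly 2 of the genes. As a measure of free RNA, Prg4 was found in 1 of 406 and 0 of 343 cells of a non-classical monocyte gate on the normal diet, and Saa3 in 1 and 1. Those cells had median depths of 2691 and 2753 UMIs.

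The label was set beside 18 markers of cavity macrophages that the gate did not use, and they marked the gated cells of both normal-diet libraries. The list was chosen with earlier results of these data known. Its genes are called independent below only in that the gate did not use them. Their summed level was 9624 CPM in WT gated cells against 2581 in the other macrophages, and 11742 against 2471 in the CKO library. Every marker but Tgm2 stood above the other macrophages by its CPM ratio in both libraries, 17 of the 18, and for 16 the whole interval lay above 1 in both. Over all 18, with no filter on low levels, the median log2 ratio, here of CPM + 10, was 2.64 in the WT and 3.05 in the CKO library, beside -0.03 and -0.02 over all genes with a UMI. Here and below a gene is compared when it reaches 50 CPM on either side, and it is called higher or lower when the ratio of CPM + 10 reaches 2-fold. In both libraries together 63 of 3476 genes were higher, which is 1.81%. Among them were 14 of these markers, most of which reached 50 CPM through the gated cells alone. The other 4 markers, Garnl3, Naip1, Rarb and Tgm2, lay under 50 CPM on both sides in at least 1 library. Naip1, and C4b named below, have close paralogs in the mouse genome, so the assignment of their reads is uncertain.

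**Figure D2:**
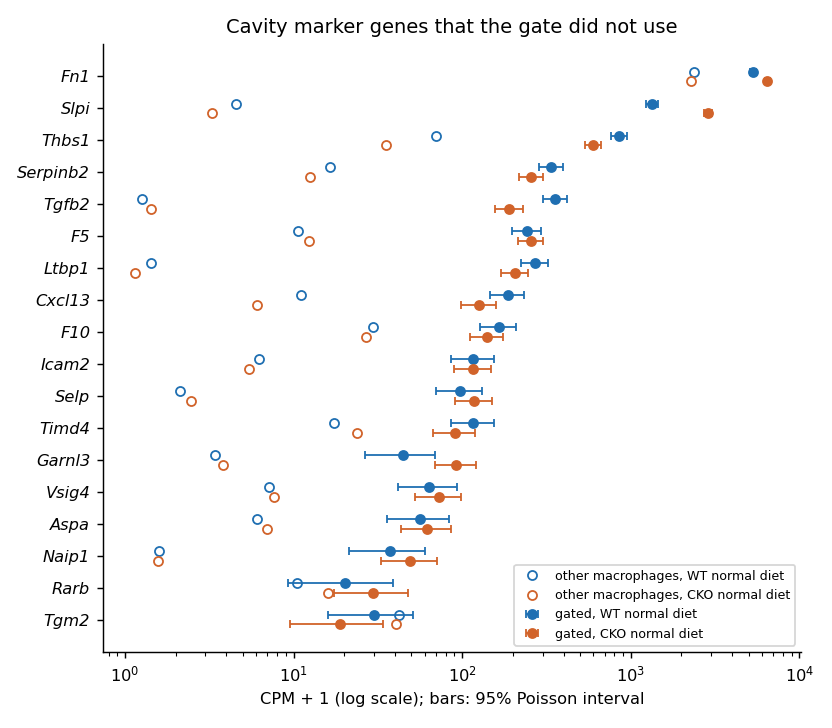
The plot gives the level of each of the 18 markers in CPM + 1 on a log scale, as filled points for gated cells with 95% Poisson intervals and open points for the other macrophages, in blue for WT and orange for CKO on the normal diet. For every marker but Rarb and Tgm2 both filled points lie to the right of both open points, with intervals that stay clear of them.

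Secreted and matrix proteins were the most abundant of these markers. Slpi reached 1343 CPM in the WT and 2871 CPM in the CKO gated cells, against 3.56 and 2.31 in the other macrophages. It was found in 25 of 38 and 28 of 41 gated cells, and in 1.55% and 0.753% of the other macrophages. Fn1, which encodes fibronectin, was common in fat macrophages in general and stood 2.25-fold (2.16 to 2.35) and 2.83-fold (2.74 to 2.93) higher in the gated cells, at 5306 and 6460 CPM. Ltbp1 and Tgfb2, a binding protein of latent TGF-beta and one of its ligands, were nearly absent elsewhere. Ltbp1 measured 270 and 204 CPM in the gated cells, against 8 and 3 UMIs in all of the other macrophages of each library. Tgfb2 measured 354 and 190 CPM, against 5 and 9 UMIs.

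Coagulation and adhesion genes stood out next. F5, the gene of coagulation factor V, measured 241 CPM in the WT and 255 in the CKO gated cells against 9.70 and 11.3 in the other macrophages. F10, the gene of factor X, measured 164 and 140 CPM against 28.8 and 25.8. Serpinb2, an inhibitor of plasminogen activators, measured 337 and 256 CPM against 15.4 and 11.5. Thbs1, the gene of thrombospondin 1, measured 852 and 600 CPM against 69.1 and 34.3. These 4 were the higher genes of a coagulation list of 14, of which 7 were compared in both libraries, beside the 1.81% of all genes compared. All 4 are also among the 18 markers, so this count is not a separate result. F5, F10 and Serpinb2 reached 50 CPM through the gated cells alone, as did Thbs1 in the CKO library. Over all 14 the median log2 ratio was 0.41 and 0.37. F13a1, the gene of factor XIII, was compared and not called. Selp, the gene of P-selectin, measured 96.3 and 117 CPM against 1.13 and 1.46. Icam2, a surface marker of large peritoneal macrophages, measured 116 and 115 CPM against 5.28 and 4.47.

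Timd4 and Vsig4 were higher and came from part of the cells. Timd4 was the 1 higher gene among 13 compared genes of dead-cell uptake, whose median log2 ratio was 0.12 and -0.05. Timd4, a receptor for phosphatidylserine on dying cells, measured 116 and 89.6 CPM against 16.4 and 22.7, and was found in 18 of 38 and 16 of 41 gated cells. Vsig4, a complement receptor, measured 62.6 and 71.7 CPM against 6.15 and 6.63, from 11 and 8 cells. Cxcl13, a chemokine that attracts B cells, measured 185 and 125 CPM against 10.1 and 5.03, but came from only 10 and 7 gated cells, and 1 WT cell held 42.9% of the WT molecules. Rarb, a retinoic acid receptor, had ratios of 2.02 (0.858 to 4.06) and 1.91 (1.08 to 3.15), from 8 and 16 UMIs. Tgm2, a transglutaminase induced by retinoic acid, had ratios of 0.698 (0.359 to 1.23) and 0.455 (0.217 to 0.840). Of a list of 16 retinoid genes, 3 were compared in both libraries and none was called.

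Across all genes, the gated cells differed from the other macrophages mainly by genes that were higher. In the WT library 88 of 3664 genes were higher, or 2.4%, and 40 were lower, or 1.09%. In the CKO library 93 of 3721 were higher, or 2.5%, and 20 lower, or 0.537%. The 63 genes higher in both made up 71.6% of the WT list and 67.7% of the CKO list. The lower lists shared little, with 3 genes in both, 0.0863% of those compared, or 7.50% of the WT and 15% of the CKO list. No gene was called in opposite directions.

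**Figure D3:**
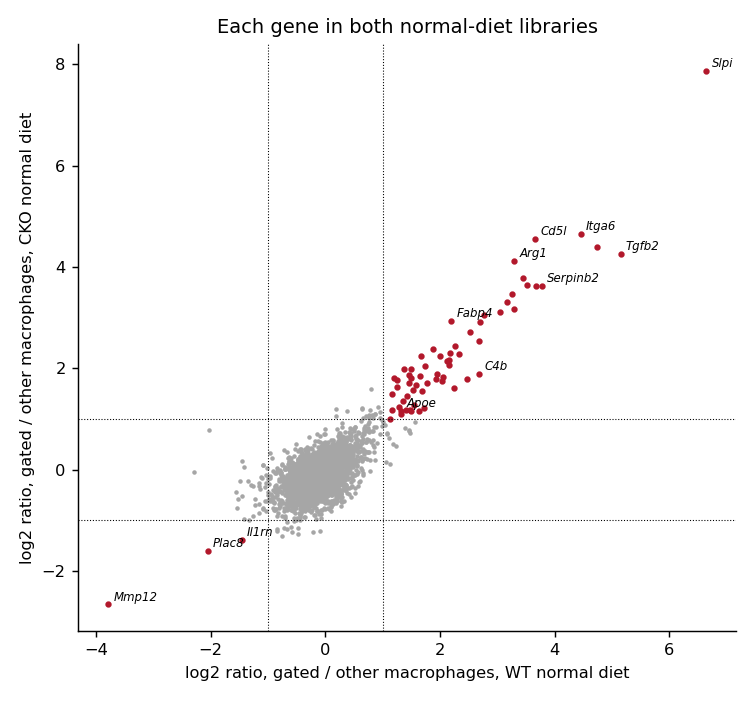
Each point is a gene with at least 50 CPM in gated cells or other macrophages of both normal-diet libraries, placed by its log2 ratio of CPM + 10 in the WT library (x axis) and the CKO library (y axis), with dotted lines at 2-fold and called genes in red. Slpi lies at the upper right and Mmp12 at the lower left.

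Among the 15 genes that stood highest by their interval were Ltbp1, Slpi, Tgfb2, Cd5l, Itga6, Padi4, Arg1, F5, Serpinb2, Icam2, Cxcl13, Thbs1, Pard3b and Clec4d. Of these, Cd5l, Itga6, Padi4, Arg1, Pard3b and Clec4d are not among the 18 markers. Itga6, the integrin alpha 6 subunit that binds laminin, measured 368 CPM in the WT and 468 in the CKO gated cells against 7.28 and 8.94 in the other macrophages, and was found in 28 and 37 gated cells. Cd5l measured 137 and 249 CPM against 1.62 and 1.04. Padi4, an enzyme that turns arginine residues into citrulline, measured 132 and 160 CPM against 2.43 and 3.48. Arg1, the arginine-degrading arginase, measured 123 and 226 CPM against 3.50 and 3.53, from 10 and 17 cells, with 46.8% of the CKO molecules in 1 cell. Clec4d, a C-type lectin receptor, had ratios of 5.99 and 7.75.

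Apoe, Fabp4, Msr1 and C4b were among the others higher in both libraries, while most genes of their lists were not called. Of the 13 compared genes of lipid-associated macrophages 2 were higher and 1 lower, with medians of -0.37 and -0.17. Of the 11 compared complement genes 2 were higher, with medians of 0.59 and 0.41, and of the 16 compared adhesion and scavenger genes 5 were higher, with medians of 0.35 and 0.59. Of all genes compared, 1.81% were higher in both libraries. Icam2, Selp and Fn1 of the adhesion list are also among the 18 markers, so that count is not a separate result. Icam2, Selp and Itga6 reached 50 CPM through the gated cells alone. Apoe, the gene of apolipoprotein E, measured 5814 CPM in the WT and 5062 in the CKO gated cells against 2316 and 2258 in the other macrophages. Fabp4, a fatty acid binding protein of macrophages and adipocytes, measured 387 and 455 CPM against 77.1 and 50.7. It is also 1 of 8 adipocyte markers, of which 6 and 4 were at 0. Msr1, the scavenger receptor SR-A, had ratios of 3.70 and 4.60. C4b, the gene of complement component C4, had ratios of 7.13 and 4.04, and Ltc4s, which makes leukotriene C4, ratios of 3.67 and 3.45. Id3, an inhibitor of helix-loop-helix factors, had ratios of 3.64 and 2.55 and was the 1 higher gene among 16 compared transcription factors of macrophage identity.

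Few genes were lower in both libraries. The 3 called were Mmp12, Plac8 and Il1rn. Mmp12, the macrophage elastase, had 0 UMIs in WT gated cells and 1 in CKO gated cells, against 128 and 64.1 CPM in the other macrophages. That is at least 17.7-fold lower in the WT library when the gated cells are set at 3 counts, and a ratio of 0.0280 in the CKO library. Plac8, a gene of recruited monocytes, measured 45.7 and 50.2 CPM against 221 and 172, and Il1rn, the interleukin-1 receptor antagonist, 21.7 and 16.1 CPM against 77.0 and 58.1. Monocytes and dendritic cells with Csf1r or Adgre1 were not removed from the other macrophages. In the clustering given below, Plac8 measured 1962 CPM in a cluster led by Itgal, Plac8 and Ace, against 61.7 in the remaining cells. The lowest genes by their interval also took in Lgals3, the gene of galectin-3, at 416 and 405 CPM against 791 and 690, Lmna, the gene of lamin A, at ratios of 0.414 and 0.605, and Cd44, the hyaluronan receptor, at ratios of 0.575 and 0.639. Runx1, Creb5 and Trerf1, which encode transcription regulators, had ratios from 0.315 to 0.617.

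Genes of antigen presentation and of small cavity macrophages were measured next to a background of 0.0863% of genes lower in both libraries, against which 0 calls in a short list is not a result about the list. Of the 8 MHC class II genes none was called in both, with median log2 ratios of -0.39 and -0.69 and sums of 19118 CPM against 25342 in the WT and 13339 against 22724 in the CKO library. In the WT library alone 1 of these genes was lower. Of 13 genes of small cavity macrophages, none was called in both and 2 were lower in the CKO library alone, Cd226 and Itgax. Cd226 measured 106 and 55.6 CPM against 152 and 136, and Itgax 38.5 and 17.9 CPM against 69.5 and 51.7. Ccr2, a monocyte chemokine receptor of the list, was not called, at 712 and 468 CPM against 915 and 831. The median log2 ratio of that list was -0.39 and -0.74. No gene of 12 linked to tissue dissociation was called, with medians of 0.20 and -0.15, and none of 3 compared interferon genes.

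Markers of lymphoid, granulocyte, dendritic and non-immune cells ranged in their sums from 0 to 468 CPM, and their part in the results was not tested. Of 12 mesothelial genes, 10 were at 0 in the WT and 11 in the CKO gated cells, and the list summed to 4.81 and 1.79 CPM. The 9 T and NK cell genes summed to 2.41 and 1.79 CPM with 8 at 0 in each library, the 7 eosinophil genes to 2.41 and 3.58, and the 8 endothelial genes to 9.63 and 30.5. The 8 B cell genes summed to 96.3 and 115 CPM, against 119 and 121 in the other macrophages, with 6 at 0. The 8 neutrophil genes summed to 120 and 104 CPM against 93.3 and 66.4, with 5 at 0. Csf3r, the receptor of granulocyte colony-stimulating factor, made up most of that sum, at 74.6 and 73.5 CPM. The 10 fibroblast genes, of which 7 were at 0, summed to 125 and 142 CPM, against 186 and 181. The 10 dendritic cell genes summed to 245 and 156 CPM, against 243 and 234. The 8 adipocyte genes summed to 390 and 468 CPM, against 90.7 and 60.7, nearly all of it Fabp4. The 10 classical monocyte genes summed to 1682 and 1615 CPM, against 2340 and 2497, and the 9 non-classical ones to 1555 and 1113, against 1448 and 1199.

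The gated cells were set beside 3 similar kinds of macrophage in the same libraries. Over the 200 WT and 327 CKO Timd4-positive macrophages on the normal diet, 67 of 3439 genes were higher in both libraries, or 1.95%, and 28 lower, or 0.814%. Over the 560 and 909 Lyve1-positive Timd4-negative macrophages, 65 of 3462 were higher, or 1.88%, and 34 lower, or 0.982%. Over the 535 and 630 macrophages with both Cd226 and Lyz1, 99 of 3385 were higher, or 2.92%, and 24 lower, or 0.709%. With Timd4 set aside, 12 or 13 of the 13 compared cavity markers were higher in each of the 3 comparisons. Markers such as Slpi, Selp, Ltbp1 and Tgfb2 reached 50 CPM through the gated cells alone, so this count follows in part from the filter.

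The resident macrophages of the fat differed from the gated cells by their scavenger and lectin genes. Of 12 resident genes compared in both libraries, 7 were lower in gated cells than in Timd4-positive macrophages, namely Cd163, Mrc1, Cbr2, F13a1, Gas6, Cd209f and Cd209g. Mrc1, the mannose receptor, measured 886 and 907 CPM in gated cells against 1925 and 1960 in Timd4-positive cells. Cd163, the receptor of haptoglobin and haemoglobin, measured 209 and 208 CPM against 471 and 472. Folr2, a folate receptor, measured 229 and 240 CPM against 479 and 484 and was not among the 7 called in both libraries. Over the macrophages with both Cd226 and Lyz1, 2 of 11 compared resident genes were higher, Pf4 and Fcna. Timd4 was found in 47.4% of WT and 39.0% of CKO gated cells, at 116 and 89.6 CPM, while the Timd4-positive macrophages, chosen for it, had 193 and 194 CPM.

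Cells with more gate genes held more of the independent markers. Other macrophages with exactly 1 gate gene, 40 WT and 54 CKO cells on the normal diet, held a median of 1.5 and 1 of the 18 markers. Cells just inside the gate, with exactly 2 gate genes, held a median of 4 and 9.5. Those with all 4 held a median of 10 in both libraries. After thinning to 2000 UMIs the medians were 1 and 1, then 4 and 3, then 7 and 6. Without thinning, at least 5 of the markers, a count chosen after the values were seen, were found in 33 of 38 WT and 38 of 41 CKO gated cells, against 1.38% and 1.59% of the other macrophages. The gated cells were deeper, so depth enters this count. After thinning, cells with 3 gate genes held a median of 6 markers in the WT and 4 in the CKO library.

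**Figure D4:**
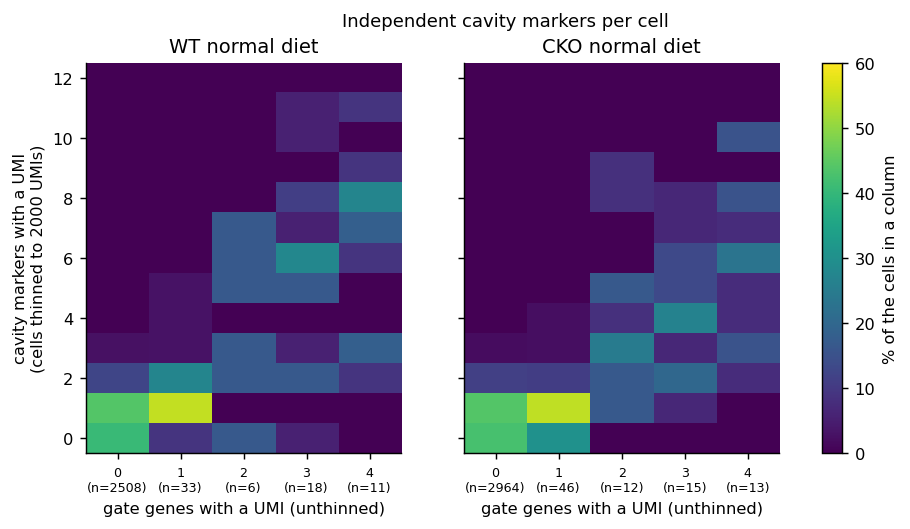
Each column is the set of macrophages with 0 to 4 gate genes in a normal-diet library and each row a number of the 18 independent markers after thinning to 2000 UMIs, with colour for the percentage of the column's cells. Cells with 0 or 1 gate gene sit mostly at 0 to 2 markers, and cells with 3 or 4 gate genes reach up to 11.

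Clustering of all kept cells without the genes of the gate placed most, but not all, of the gated cells together. Of 22 clusters, 1 with 59 cells held 24 of the 38 WT gated cells, or 63.2%, and 32 of the 41 CKO gated cells, or 78.0%, and 56 of its 59 cells were gated. It held no cell of either high-fat library. No step aligned the libraries before clustering, so library and diet cannot be told apart in where cells fell. The highest genes of this cluster outside the gate were Slpi, Itga6, Tgfb2, Serpinb2, Ltbp1, Thbs1, F5 and Cd5l. The neighbour graph was set to 15 cells, the cell itself counted among them. Among the neighbours of a gated cell, a mean of 57.5% in the WT and 74.0% in the CKO library were gated, against 0.167% and 0.153% for the other macrophages.

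The gated cells outside that cluster carried fewer markers. The 14 WT and 9 CKO cells outside it held a median of 5.5 and 8 of the 18 markers, against 11.5 and 11 inside. Slpi measured 248 and 135 CPM outside it and 2036 and 3858 inside, and Icam2 measured 49.6 and 87.9 CPM outside and 157 and 124 inside. The MHC class II sum was higher outside, at 26972 and 20458 CPM, than inside, at 14141 and 10772. Median depth was 10668 and 19488 UMIs outside and 7863 and 12488 inside. Saa3, used by the gate, measured 1768 CPM outside and 2658 inside in the WT library, and 277 outside and 2236 inside in the CKO library. Doublets were not called by Scrublet at its own threshold in any library, so its calls cannot tell whether gated cells were doublets. Of the gated cells, 0 of 38 and 1 of 41 were among the cells with the highest scores. The median score of the gated cells was above that of the other macrophages, at 0.0976 against 0.0492 in the WT and 0.0863 against 0.0514 in the CKO library. The part of doublets in the cells outside the cluster was not tested further.

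Gated cells without a Gata6 molecule also held the independent markers. On the WT side 13 cells with Gata6 held a median of 10 markers and 25 without it held 8, and on the CKO side the medians were 10 and 10. The sum of the 18 markers was 12979 CPM with Gata6 and 8090 without it in the WT library, and 14942 and 9701 in the CKO library.

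The 5 gated cells of the CKO high-fat library bore out the label only in part. The 18 markers summed to 6306 CPM in them, against 1248 in the other macrophages of that library. Without thinning, 3 of the 5 held at least 5 markers, against 0.541% of the others. They held 11 to 338 UMIs of Saa3, 1 to 7 of Prg4, at most 1 of Alox15 and 1 of Gata6 in a single cell, at depths of 2228 to 11551 UMIs. Of the 18 markers they held 4, 5, 10, 5 and 3. Slpi was at 51 and 26 UMIs in 2 cells and at 0 or 1 in the other 3, and Icam2, Selp and F5 were found in 1 cell only, that with 10 markers. By clustering, 4 of the 5 fell into a cluster led by Cxcl9, Saa3, Isg15 and Rsad2, of which Cxcl9, Isg15 and Rsad2 are induced by interferon. The remaining cell fell into a cluster led by Arg1, Ccl7 and Ccl2. They are therefore called only cells that passed the gate. No comparison of gated cells between the diets was made, since a minimum of 20 gated cells per library was set for it.

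Between the genotypes on the normal diet, the gated cells differed in few genes. Of 1908 genes with at least 100 CPM in either library, 11 were higher in the library labelled CKO, or 0.577%, and 8 were lower, or 0.419%. For all 19 the interval of the ratio stayed on 1 side of 1, which a 2-fold call at 100 CPM already entails at these depths. In the other macrophages of the same libraries, 2 of 1862 genes were higher, or 0.107%, and none was lower, or 0.0%. The gated sets hold 38 and 41 cells, and single cells carry much of some genes.

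Under a limit of 200 CPM and 30 UMIs on the higher side, Slpi stood highest by its interval, at 1343 CPM in WT and 2871 CPM in CKO gated cells, a ratio of 2.14 (1.94 to 2.36). In the other macrophages its ratio was 0.648 (0.438 to 0.952). The cluster of 59 cells named above held 63.2% of the WT and 78.0% of the CKO gated cells. Slpi measured 2036 CPM in the WT and 3858 in the CKO gated cells inside it, and 248 and 135 outside. The part of this make-up in the genotype ratios was not tested. The plot of genotype ratios also gives Hmgb2, a chromatin protein of dividing cells, at 2.17 (1.69 to 2.80), H2afv, a histone variant, at 2.02 (1.44 to 2.87), and Fabp5, a fatty acid binding protein, at 2.00 (1.41 to 2.89). Taldo1, a transaldolase of the pentose phosphate pathway, stood at 1.93 (1.40 to 2.69) and Neat1, a nuclear long noncoding RNA, at 1.73 (1.40 to 2.14), both under the called 2-fold, like H2afv and Fabp5 once 10 CPM is added. Stmn1 and Pclaf, markers of division, stood at 4.64 (2.77 to 8.27) and 22.0 (5.82 to 186), the latter from 2 UMIs in WT cells.

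Division differed between the 2 sets of gated cells before depth was made equal. Of a list of 16 division genes, 6 were compared in WT gated cells and 4 were lower than in the other macrophages. Of all genes compared there, 1.09% were lower. In the CKO library 0 of 8 were lower, beside 0.537% of all genes compared. The median log2 ratio of the list was -1.44 in the WT and 0.08 in the CKO library. At least 3 of 10 division genes were found in 2 of 38 WT and 10 of 41 CKO gated cells, and after thinning to 2000 UMIs in 0 of 35 and 2 of 40. Without the cells that held 3 or more, a choice made after the values were seen, the log2 ratio of CKO over WT was 0.04 for Hmgb2 and 0.34 for H2afv, from 1.08 and 0.95. The value of Slpi became 1.51, from 1.09. Over all genes compared, 28 were then higher and 23 lower.

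Of the 8 genes lower in the library labelled CKO, which are 0.419% of all genes compared, 2 were among the 12 compared chemokines. Ratios under 1 were also measured for several in the other macrophages. Tnfaip2, a gene induced by tumour necrosis factor, stood at 0.372 (0.258 to 0.532), from 231 CPM in WT to 86.0 in CKO gated cells, and at 0.625 (0.577 to 0.678) in the other macrophages. Nlrp3, the inflammasome sensor, stood at 0.465 (0.344 to 0.626) and Ccl4, a chemokine of activated macrophages, at 0.392 (0.300 to 0.511). In the other macrophages the ratio was 0.712 for Nlrp3 and 0.812 for Ccl4. In Ccl4, 1 WT cell held 64.7% of the WT molecules, and with the highest cell left out of each library its log2 ratio was -0.64 in place of -1.30. Gdf15, a stress-induced cytokine, stood at 0.260 (0.134 to 0.477) and Tnf, the gene of tumour necrosis factor, at 0.437 (0.261 to 0.718). The other called genes were Ccl8, Casp4 and Tnfsf9. Il6, Mt1 and Tgfb2 had ratios of 0.525, 0.558 and 0.537 and were not called. With the highest cell of each gene left out, 7 genes were higher and 3 lower in all.

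**Figure D5:**
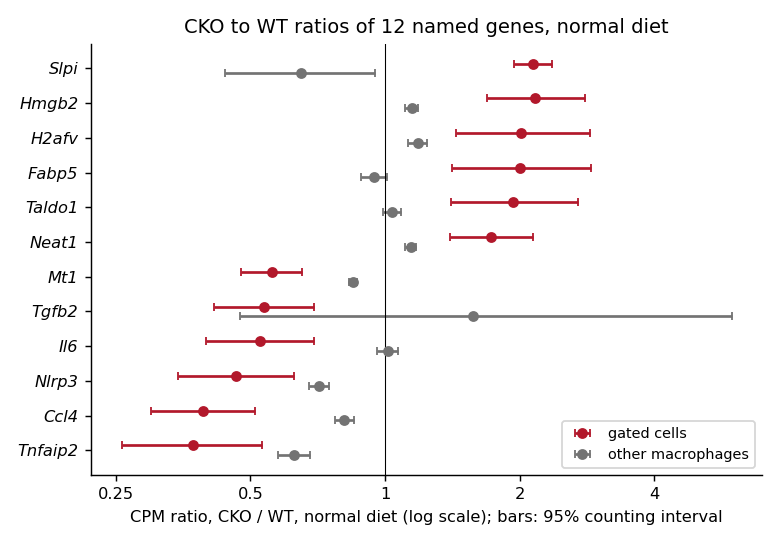
The plot gives the ratio of CPM in the CKO to the WT normal-diet library on a log scale for the 6 highest and 6 lowest genes by their interval, in red for gated cells and grey for the other macrophages, with 95% counting intervals. The red and grey points lie on opposite sides of 1 for Slpi, Fabp5, Il6 and Tgfb2, and the grey intervals of the last 3 cross 1.

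Prdm1 itself had 3 UMIs in the WT gated cells, or 7.22 CPM, and 12 in the CKO gated cells, or 21.5 CPM, a ratio of 2.98 (0.804 to 16.5). The independent markers were present in the gated cells of both genotypes. Of the 12 independent markers with at least 100 CPM in either library only Slpi was called, and the median log2 ratio of CKO over WT over the 12 was -0.27, beside 0.03 over all genes compared. Icam2 had a ratio of 0.993 (0.672 to 1.48), F5 of 1.06 (0.813 to 1.38), and Selp of 1.21 (0.804 to 1.84). None of 6 compared MHC class II genes was called, and their median log2 ratio was -0.52. Inside the cluster of 59 cells the class II sum was 14141 CPM in the WT and 10772 in the CKO gated cells, and outside it 26972 and 20458. H2-Aa had a ratio of 0.680 (0.636 to 0.727) in gated cells and 0.894 (0.887 to 0.902) in the other macrophages.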

How the data were processed

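Single-cell RNA was counted in 4 libraries of sorted mouse fat macrophages, 1 per combination of genotype and diet. The deposited files hold raw UMI counts per gene and cell, made by the authors with Cell Ranger 7.0.0, per the file headers, on build GRCm38, per the submitters' processing notes. The use of intronic reads is not stated by these.

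Cells were filtered and gated as given above. Counts were summed per library and kind of cell and expressed as CPM. Levels have Poisson intervals and shares and ratios exact binomial ones, at 95%, for counting error only. Genes were compared with at least 50 CPM on either side, or 100 for genotype, and called at 2-fold of CPM + 10. The genes named are the gate genes and 18 markers, the 15 highest and 12 lowest by the interval bound nearest 1 among genes with 100 CPM and 20 UMIs in both libraries, the 6 and 6 for genotype among genes with 200 CPM and 30 UMIs, and called or abundant members of lists; Stmn1, Pclaf, Gdf15, Tnf, Ccl8, Casp4, Tnfsf9, Msr1, Id3 and Csf3r were named because they were called or lay in a list. Of the 15 highest genes, 1 is not reported here. The other steps used scanpy 1.11.5 and leidenalg 0.10.2 for clustering, edgeR 4.0.16 for scaling factors alone, numpy 2.4.6 and scipy 1.17.1. The procedure was tested on simulated data. Gene positions came from the annotation of the same build, which matched 32235 of 32285 gene identifiers. The members and lists were chosen with earlier results of these data known. The gate of non-classical monocytes (3 or more of Ace, Treml4, Cd300e, Adgre4, Eno3 and Spn) was set after the data were seen.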

Additional observations from a re-analysis of the deposited data

How the results depend on the processing

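No paired analysis was possible because each group has 1 library and no result comes from a test. Requiring 3 of the 4 gate genes gave a share of 0.674% in the CKO normal-diet library, and requiring Gata6 gave 0.0115% in the CKO high-fat, 0.351% in the WT and 0.372% in the CKO normal-diet library. The 63 genes higher in both libraries became 37 with 50 CPM added, 38 at 100 CPM or more and 108 without a filter. The 3 genes lower in both became 6 with 1 CPM added, 10 without a filter, 1 at 100 CPM or more, 28 by the mean of per-cell CPM, 6 with 3 gate genes, 6 without the highest Scrublet scores and 29 against Timd4-positive macrophages. This 29 keeps Timd4, Lyve1, Cd226 and Lyz1 among the genes compared, which the 28 of 3439 given above left out. After the data were seen, 2 alternatives were added: without the highest cell of each gene the 3 lower genes became 15, and without the cells holding 3 division genes 14. The median log2 ratio of the markers that reached 50 CPM, 3.27 in the WT and 3.17 in the CKO library, became 4.14 and 4.37 with 1 CPM added, and 3.52 in the CKO library without the dividing cells. Over 8 settings its lowest values were 3.12 and 3.12.

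For CKO over WT, the 11 higher and 8 lower genes became 3 and 2 with 50 CPM added, 249 and 82 without a filter, 2 and 3 at 200 CPM or more, 17 and 38 by the mean of per-cell CPM, 7 and 3 without the highest cell, and 28 and 23 without the dividing cells. Against Timd4-positive macrophages the log2 ratio of Timd4, which chose them, became -0.70 in the WT and -1.03 in the CKO library, and that of Plac8 in the CKO library 0.11. The median log2 ratio of the division genes in WT gated cells, -1.44, became 0.11 without the dividing cells. Those cells were chosen by division genes, so this shift is in part by construction. At a clustering resolution of 0.5, 78.9% of WT gated cells shared a cluster, which then held 1182 cells. Of 714 alternatives for 51 named gene values at 2-fold or more, 711 had the same sign and 700 stayed at 2-fold or more. For the shifts other than by construction the cause was not tested. The genotype comparison rests on 415535 and 557920 UMIs of gated cells.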
